A study of Mus musculus with 24 samples.

Results

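Nuclear genes of the mitochondrial respiratory chain were followed in 8 lines of MC38, a mouse colon carcinoma cell line of the C57BL/6 strain. The genes were taken by name, as all genes with a mean of at least 10 normalized counts over 24 samples whose symbol begins with Nduf, Sdh, Uqcr, Cox4, Cox5, Cox6, Cox7, Cox8 or Atp5, without names that contain -ps. The deposited unit, normalized counts, is the number of reads of a gene after scaling by the authors for each library and rounding. Of 110 genes with such a name, 9 carried -ps and 6 had a mean below 10, so that 95 of 52636 genes in the table remained. The 13515 genes of the table with a mean of at least 10 are called expressed genes here. The lowest of the 95 were Cox7b2 with a mean of 11.3 and Cox6a2 with 11.5, and the highest of the 6 left out was Cox7a1 with 1.7.

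Each line gave 3 samples, harvested at separate passages unless stated otherwise. MC38-WT was unmodified, was grown without puromycin and was taken at passages 7, 8 and 9. MC38-MOCK#1 (CRISPR/Cas9 with no target), MC38-COSMC KO (C1galt1c1 targeted), MC38-CMAS KO (Cmas targeted) and MC38-DKO (both genes targeted) were made with CRISPR/Cas9, grown with puromycin and taken at passages 4, 5 and 6. MC38-MOCK#2 and the lines labelled FUT4 and FUT9 were made for overexpression with CRISPR-dCas-VPR, in which an inactive Cas9 carries activator domains to a promoter, and were also grown with puromycin. MC38-MOCK#2 and MC38-FUT9 were taken at passages 6, 7 and 8, and MC38-FUT4 at passages 7, 8 and 7, so that it is not known whether its samples 1 and 3 are separate harvests. These samples were the closest of the 24 pairs within lines, with a median absolute log2 difference of 0.0867 over expressed genes against 0.119 in the next pair. MC38-COSMC KO is a bulk population, sorted repeatedly for binding of a lectin, and whether the other lines are clones is not given in the sources used here. MC38-MOCK#1 was the reference for the knockouts and MC38-MOCK#2 for the overexpression lines. Since each line was made once, p-values measure the spread between harvests of a line, and an effect of the modified gene and the history of the line cannot be told apart. Passage and line cannot be told apart either where MC38-WT or MC38-MOCK#2 is set against MC38-MOCK#1.

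The respiratory chain passes electrons from NADH (complex I) or succinate (complex II) through coenzyme Q, complex III and cytochrome c to oxygen (complex IV), and complexes I, III and IV pump protons that drive the ATP synthase (complex V). Most of its subunits are encoded in the nucleus, imported and joined to a few that mitochondrial DNA encodes, with the help of assembly factors. Nuclear respiratory factor 1 (NRF1), GA binding protein (its DNA-binding subunit is encoded by Gabpa) and YY1 are known to bind at promoters of these nuclear genes.

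By role, the 95 genes comprised 36 subunits of complex I (7 core and 29 accessory), 8 assembly factors of complex I, 4 subunits and 4 assembly factors of complex II, 8 subunits of complex III, 13 of complex IV and 16 of complex V. The others were Cox7a2l, which encodes a factor that holds complexes III and IV together, Atp5s, which encodes coupling factor B, and 4 further loci named like a subunit gene (Cox6c2, Ndufb4c, Ndufa11b and Ndufs6b). Reads of these 4 loci may not be separable from those of the genes they resemble, so their values are uncertain. The 13 subunits of mitochondrial DNA were listed at 0 in every sample, as were all 37 rows of the mitochondrial chromosome, so that the mitochondrial part of the chain has no value here. Exons of 30 of the 95 genes overlap those of another gene, and in 19 cases the other gene had a mean of at least 10. Among genes described later, Cox6c shares 7.01% of its exon bases with Vps13b and Uqcrb 5.71% with Gm10767, both on the opposite strand.

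The libraries held an estimated 6760723 to 16232041 reads, the fewest in MC38-WT sample 3, and a single read amounted to 0.756 to 1.67 normalized counts. C1galt1c1 had 242, 220 and 251 normalized counts in MC38-MOCK#1 and 145, 163 and 124 in MC38-COSMC KO, but 206, 166 and 175 in MC38-DKO. The values in MC38-DKO were like those of lines without this target, with 215, 181 and 152 in MC38-CMAS KO and 173, 154 and 217 in MC38-MOCK#2. Cmas was lower in both lines in which it was targeted (93 to 142) than in every other sample (at least 272). In the library group labelled FUT4, Fut4 was near 0 as in every other line, while Fut9 stood at 209, 171 and 186 against 955, 641 and 676 in MC38-FUT9 and at most 7 elsewhere, so "the line labelled FUT4" is used throughout. The 7 epithelial markers examined (Epcam, Krt8, Krt18, Krt19, Cdh1, Cdx2 and Vil1) summed to between 0 and 19 per sample, so the epithelial character of the label is not seen in the RNA. The 6 immune markers summed to 18 to 66, the 3 endothelial markers to 0 to 19, the 6 striated muscle markers to 202 to 338, and the 5 fibroblast markers (collagens among them) to 569 to 2561. Single genes carried these sums. Most of the immune sum was Cd68 (17 to 63). The muscle sum was nearly all Acta1 (200 to 337), while Myod1 and Myog were at 0 and Ckm, Myh1 and Des at most at 10. Pdgfra (401 to 1427) and Pdgfrb (27 to 1100) made up most of the fibroblast sum, and Dcn ranged from 0 to 417.

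Together the 95 genes took 1.01% to 1.18% of all normalized counts of a sample. The share was 1.07% ± 0.0646 in MC38-WT (SD, n = 3), 1.12% in MC38-MOCK#1 and 1.17% in the line labelled FUT4, which was the highest mean. Per kilobase of exon, the median level over the 24 samples was 1552 normalized counts for the 5 F1 subunits of the ATP synthase, 964 for complex IV, 892 for complex III, 643 for the remaining ATP synthase subunits, 607 for complex II, and 478 and 480 for core and accessory subunits of complex I. Assembly factors were lower, with medians of 116 for complex I and 82.8 for complex II. Atp5b, which encodes the catalytic beta subunit of the ATP synthase, was highest with 4850 normalized counts per kilobase, followed by the complex IV genes Cox8a (4748) and Cox6a1 (4361). Sdhaf3 (16), Cox6a2 (16.9) and Cox7b2 (20.9) were lowest. Exon length counts every annotated isoform, which lowers the value of genes with long minor isoforms, such as Ndufb2 (30.1).

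**Figure D1:**
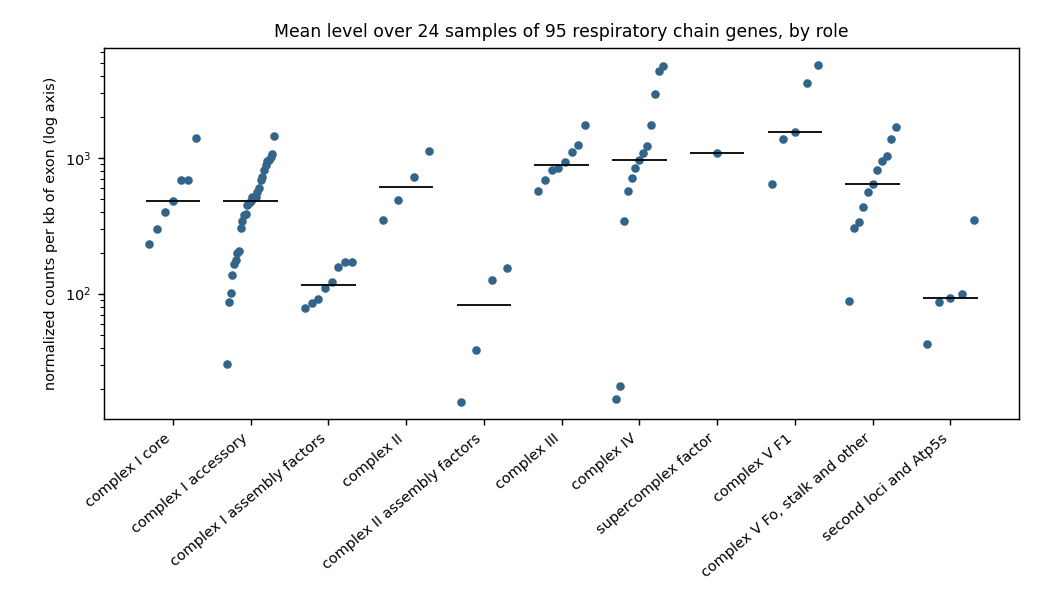
Mean level of each of the 95 genes over 24 samples, in normalized counts per kilobase of exon on a log axis, by role. Each dot is a gene and each line the median of the role; F1 subunits are the highest group (median 1552) and complex II assembly factors the lowest (82.8).

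Where a subunit has tissue forms, the form used by most tissues carried nearly all counts. Cox4i1, Cox6a1, Cox6b1 and Cox8a were at 2956, 4361, 1747 and 4748 normalized counts per kilobase, while Cox4i2, which is known from lung, had a mean of 0.125 normalized counts over the 24 samples and Cox6b2, Cox8b and Cox8c were at 0. Cox7a2 was at 964 per kilobase, and the muscle form Cox7a1 had a mean of 1.7 normalized counts. Ndufa4, which belongs to complex IV, was at 1223 per kilobase, and Ndufa4l2, a gene known to respond to low oxygen, had a mean of 1.1 normalized counts. Cox5a and Cox5b, which encode different subunits and not forms of the same subunit, were at 707 and 840 per kilobase. Of the genes that encode the same c subunit of the ATP synthase ring, Atp5g3 (1690) and Atp5g2 (1365) were above Atp5g1 (339). In complex II, which is also an enzyme of the TCA cycle, Sdhd was at 1128, Sdha at 725, Sdhb at 489 and Sdhc at 351 per kilobase.

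The levels of these genes differed little between lines. The ratio of the highest to the lowest line mean had a median of 1.28 over the 95 genes, and was below 1.5 for 73 of them (76.8%). Among the 13515 expressed genes the median ratio was 1.57 and 43.5% were below 1.5. Among genes with a mean of at least 100, the corresponding values were 1.27 and 82.6% for 86 respiratory chain genes and 1.46 and 55.7% for 9781 genes. The standard deviation between line means, on the log2 scale, had a median of 0.123 over the 95 genes, and that between single samples of a line one of 0.113. Among expressed genes these medians were 0.216 and 0.163. A mean of 3 samples varies less than a single sample. Near-equal values therefore do not show that lines differ no more than their samples. The steadiest gene was Ndufa4, whose line means lay between 1623 in MC38-FUT9 and 1793 in MC38-MOCK#2 (ratio 1.105), and next among the genes described here was Cox4i1, the main form of its complex IV subunit, between 4314 in MC38-WT and 4794 in MC38-COSMC KO (1.11). At the other end, the ratio was 3.71 for Cox6a2, whose samples within a line also varied most, 3.07 for Ndufc2, 1.86 for Sdhaf4, 1.80 for Cox7a2l and 1.71 for Atp5d, and Cox7b2 has no ratio because MC38-DKO was listed at 0.

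**Figure D2:**
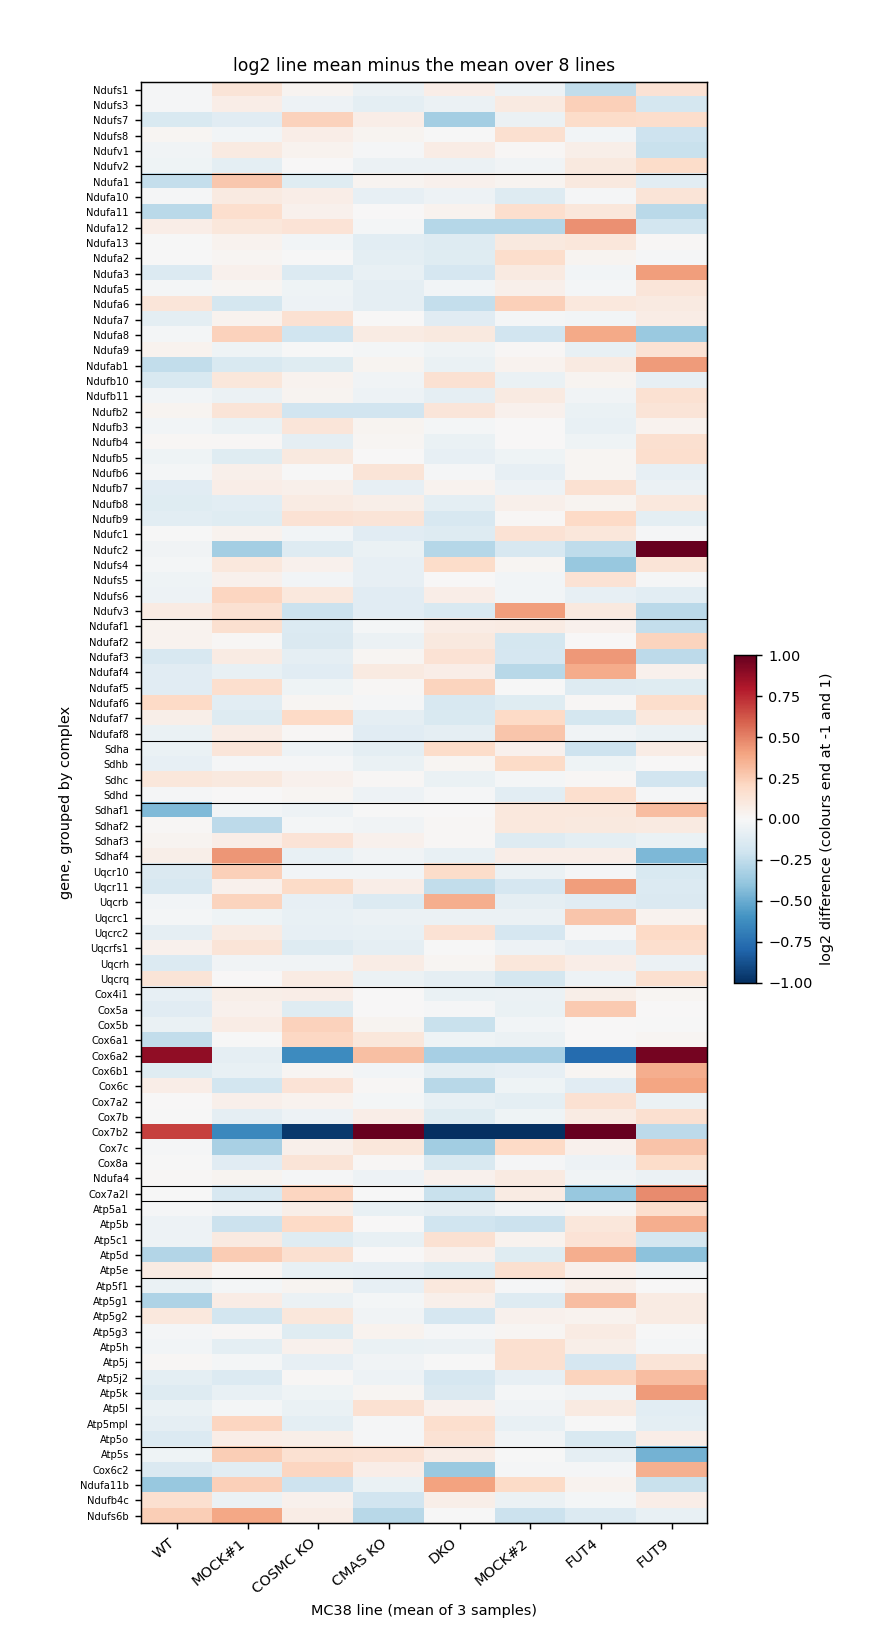
Level of 94 of the 95 genes in each line, as log2 of the line mean plus 1 minus the mean over the 8 lines, with colours ending at 1 in either direction. Most cells are pale, and Cox7b2, Cox6a2 and Ndufc2 are the genes with the strongest colours.

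The promoters of 5 genes are given here, because the comparisons that follow turn on their genes. Each runs from 250 bases before to 50 bases after the annotated start, is printed in the direction of the gene, and comes from RefSeq on GRCm38.p6. Ndufa8 (chr2:36049289-36049588, minus strand) and Atp5j (chr16:84834927-84835226, minus strand) hold motifs, which are in capitals, the NRF1 motif in Ndufa8, and the YY1 motif followed by the GABPA motif in Atp5j. Atp5b (chr10:128083057-128083356, plus strand), Ndufc2 (chr7:97399753-97400052, plus strand) and Cox7b2 (chr5:71548156-71548455, minus strand) hold none of the 3 motifs searched.
Ndufa8: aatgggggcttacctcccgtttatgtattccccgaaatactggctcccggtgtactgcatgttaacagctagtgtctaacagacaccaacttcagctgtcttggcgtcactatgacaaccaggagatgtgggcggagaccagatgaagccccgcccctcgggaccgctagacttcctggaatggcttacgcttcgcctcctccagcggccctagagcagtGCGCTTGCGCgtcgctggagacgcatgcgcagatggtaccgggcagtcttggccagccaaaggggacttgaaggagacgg
Atp5j: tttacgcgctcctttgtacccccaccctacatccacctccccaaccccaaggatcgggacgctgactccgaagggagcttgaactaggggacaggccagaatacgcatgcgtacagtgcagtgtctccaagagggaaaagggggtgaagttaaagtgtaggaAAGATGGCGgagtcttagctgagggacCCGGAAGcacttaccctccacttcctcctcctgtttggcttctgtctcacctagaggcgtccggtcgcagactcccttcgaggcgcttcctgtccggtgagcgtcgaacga
Atp5b: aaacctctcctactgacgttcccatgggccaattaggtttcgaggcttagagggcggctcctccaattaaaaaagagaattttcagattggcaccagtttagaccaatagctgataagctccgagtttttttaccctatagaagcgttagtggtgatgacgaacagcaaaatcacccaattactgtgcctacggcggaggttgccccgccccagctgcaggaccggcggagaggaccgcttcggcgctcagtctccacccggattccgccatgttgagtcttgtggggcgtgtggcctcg
Ndufc2: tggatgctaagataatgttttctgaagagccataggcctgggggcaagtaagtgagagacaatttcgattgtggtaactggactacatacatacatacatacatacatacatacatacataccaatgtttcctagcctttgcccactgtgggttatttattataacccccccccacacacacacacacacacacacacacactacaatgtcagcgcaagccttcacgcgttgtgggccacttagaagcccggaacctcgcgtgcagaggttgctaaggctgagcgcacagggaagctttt
Cox7b2: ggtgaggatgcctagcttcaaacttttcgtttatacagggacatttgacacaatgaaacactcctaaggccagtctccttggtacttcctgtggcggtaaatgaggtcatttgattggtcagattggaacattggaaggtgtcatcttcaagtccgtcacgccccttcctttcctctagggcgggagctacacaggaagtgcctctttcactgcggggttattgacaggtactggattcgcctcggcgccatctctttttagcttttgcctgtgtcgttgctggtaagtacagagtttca

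The motifs searched on both strands were GCGCA, any base and GCGC for NRF1, CCGGAAG for GABPA and AAGATGGCG for YY1, and the last 3 bases of the GABPA motif are also the first 3 of the YY1 motif, so that a site of both may share them. Promoters were matched for 75 of the 95 genes. Counts are of genes, and a gene with several promoters holds a motif if any of them does. The NRF1 motif was in 21 of 75 genes (28%), against 5.19% of all 27025 genes with a promoter. Among the 9204 expressed genes matched to a promoter by symbol it was 12.2%, and the second share given for each motif below is of these genes. The GABPA motif was also in 21 (28%), against 9.93% and 21.6%. The YY1 motif was in 8 (10.7%), namely Atp5j, Atp5j2, Ndufa9, Ndufaf8, Ndufc1, Ndufs4, Ndufs6 and Ndufs7, against 1.64% and 3.81%. At least 1 of the 3 motifs was in 42 genes (56.0%), against 15.1% and 33.3%. A match of letters is a description of the window and says nothing of binding in these cells.

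The first comparison asked what differs when C1galt1c1, whose product is needed to extend O-glycans beyond the Tn antigen, was targeted. Differentially expressed genes (DEGs) are those with an adjusted p below 0.05 in limma, over all genes tested. Between MC38-COSMC KO and MC38-MOCK#1, 8 of the 95 genes were higher and 3 lower (11.6%), while 11.6% of all genes tested were DEGs and 17.1% of expressed genes (9.12% higher and 8.01% lower). The median log2 fold change of the 95 genes was -0.03, and that of expressed genes was 0.00. Rescaled to the same total per library, 6 were higher and 10 lower.

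Genes of 3 complexes and a supercomplex factor were among those that rose. Atp5b (ENSMUSG00000025393, chromosome 10, 128083273 to 128090391 of GRCm38) had 17902, 17888 and 16886 normalized counts in MC38-MOCK#1 and 23917, 22904 and 23434 in MC38-COSMC KO, so the lines did not overlap. As in all bulk RNA, fewer cells with a transcript and less of it per cell cannot be told apart. Atp5b differed by 0.42 on the log2 scale (standard error 0.0482, adjusted p = 0.0029, limma). The other ATP synthase gene that rose was Atp5g2, by 0.30 on the log2 scale. In complex IV, the small subunit genes Cox7c, Cox6c and Cox8a rose by 0.38, 0.33 and 0.24, and none of the 13 was called lower. Cox7c went from 503, 484 and 549 to 667, 668 and 657 normalized counts. Ndufs7, the core subunit of complex I that carries its last iron-sulfur cluster, rose by 0.34, and Ndufaf7, which encodes a methyltransferase needed to assemble complex I, by 0.33. Cox7a2l, the supercomplex factor of which C57BL/6 mice carry a shortened protein, rose by 0.38 (adjusted p = 0.02, limma). In MC38-WT, the means of Atp5g2 (2454), Cox7c (635) and Cox6c (1273) were near those of MC38-COSMC KO (2466, 664 and 1338). MC38-MOCK#1 was lower (2007, 512 and 1068). The MC38-WT means of Atp5b (19611), Cox7a2l (1225), Cox8a (2576) and Ndufaf7 (375) lay between both lines, and that of Ndufs7 (617) was near MC38-MOCK#1 (634).

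Fewer genes fell. Ndufa8 (chromosome 2, 36036326 to 36049406), an accessory subunit of complex I with the NRF1 motif in its promoter, had 1015, 1096 and 1101 normalized counts in MC38-MOCK#1 and 780, 798 and 801 in MC38-COSMC KO, and fell by 0.43 on the log2 scale (standard error 0.0583, adjusted p = 0.00522, limma). Sdhaf4, an assembly factor of complex II, fell by 0.51, from 146, 136 and 165 to 114, 98 and 100. Atp5c1, the gamma subunit that turns in the ATP synthase, fell by 0.21. The means in MC38-WT were 900 for Ndufa8, 114 for Sdhaf4 and 2516 for Atp5c1, each between those of MC38-COSMC KO and MC38-MOCK#1. No gene of complex III (8) or complex II (4) passed the test. The groups did not overlap for 38 of the 95 genes, and for 40.5% of expressed genes. The DEG count was 2 without MC38-MOCK#1 sample 2 or MC38-COSMC KO sample 2, 3 without MC38-COSMC KO sample 3, 4 without MC38-MOCK#1 sample 1 or MC38-COSMC KO sample 1, and 11 without MC38-MOCK#1 sample 3. Atp5b and Ndufa8 were DEGs in each of these 6 fits, and each of the other 9 missed the threshold in at least 4. With eBayes without a trend, in which the spread limma assumes does not follow the level of a gene, none of the 11 was a DEG in limma, where Ndufa8 had an adjusted p of 0.051 and Atp5b one of 0.052, and 21 of the 95 genes had an unadjusted p below 0.05.

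**Figure D3:**
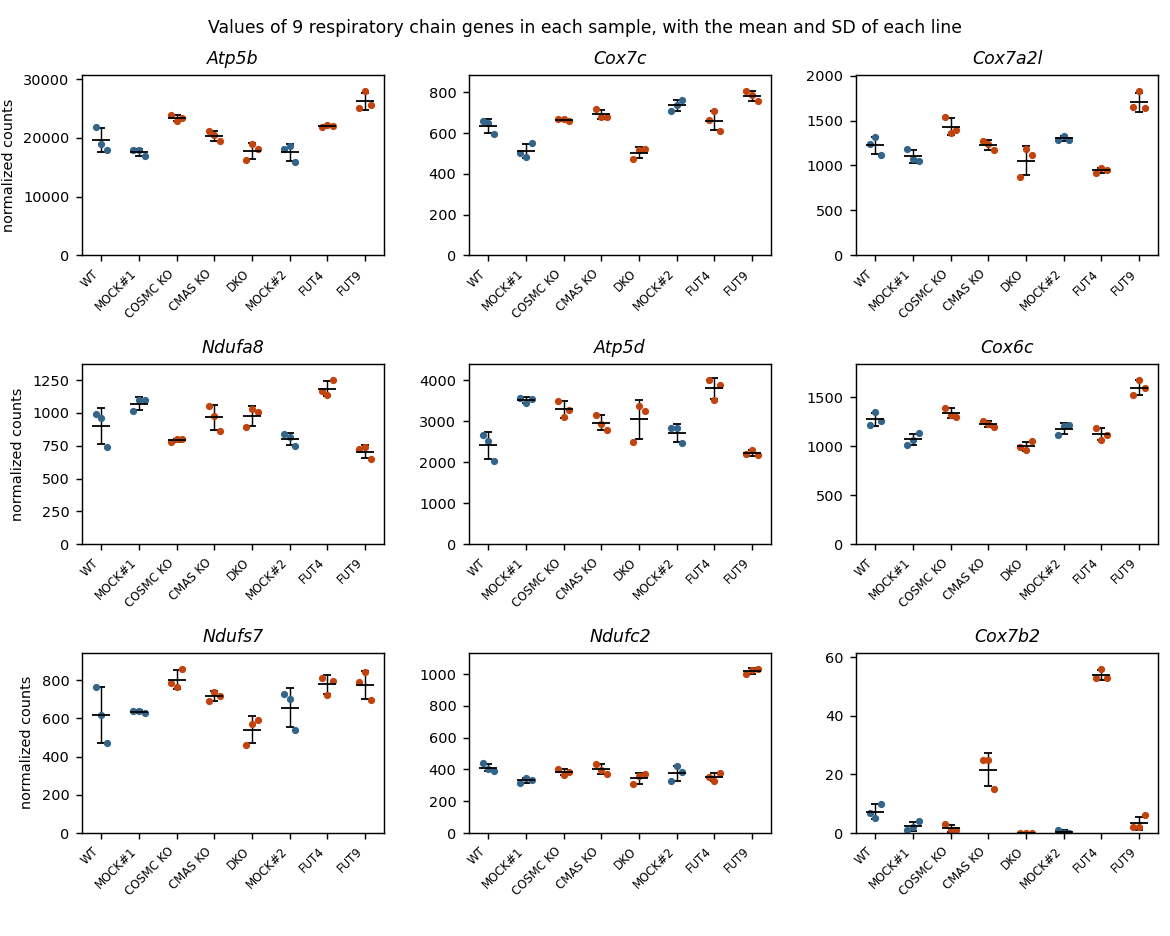
Normalized counts of 9 genes in each of the 24 samples, on linear axes that start at 0. Dots are samples, bars are line means with their SD (n = 3), blue marks MC38-WT and the mock lines and red the modified lines; Cox7b2 is highest in the line labelled FUT4 (53 to 56) and Ndufc2 in MC38-FUT9 (998 to 1033).

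In MC38-CMAS KO, in which the gene of the enzyme that activates sialic acid for transfer to glycans was targeted, 2 of the 95 genes were higher than in MC38-MOCK#1 and 0 were lower (2.11%), while 5.76% of all genes tested and 8.18% of expressed genes (4.32% higher and 3.86% lower) were DEGs. Both belong to complex IV. Cox7c had 717, 678 and 681 normalized counts against 503, 484 and 549, a log2 fold change of 0.44 (standard error 0.0727, adjusted p = 0.0211, limma). Cox7b2, a second form of the subunit encoded by Cox7b that is known mainly from testis, had 25, 25 and 15 normalized counts against 1, 2 and 4. An estimated 66 reads against 7 give a ratio of 10.1, with an exact 95% interval of 4.64 to 26.1 that covers counting error only, and the adjusted p was 0.0174 in limma. The counts of Cox7b2 remained far below those of Cox7b, which stood at 1088 normalized counts per kilobase over all samples. Cox7b2 passed the rule on mean level only through this line and the line labelled FUT4, so its call is not independent of that rule. Without MC38-MOCK#1 sample 3 the count was 3, and without any other of the 6 samples it was 0, with 15 to 24 of the 95 genes at an unadjusted p below 0.05 in limma. Rescaled to the same total, 2 were higher and 2 lower. The groups did not overlap for 35 of the 95 genes (36.8%), and for 33.5% of expressed genes.

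Between MC38-DKO and MC38-MOCK#1, limma called 0 of the 95 genes, with 6 at an unadjusted p below 0.05. Of all genes tested, 20 of 21738 were DEGs (0.092%), and 0.141% of expressed genes (0.0296% higher and 0.111% lower). The log2 fold changes of the 36 complex I subunits lay between -0.39 and 0.08, and those of the 16 ATP synthase subunits between -0.22 and 0.13. Cox7b2 was listed at 0 in all 3 samples of MC38-DKO and had 1, 2 and 4 normalized counts in MC38-MOCK#1. The groups did not overlap for 18 of the 95 genes (18.9%), and for 14.4% of expressed genes.

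Setting MC38-WT and MC38-MOCK#2 against MC38-MOCK#1 shows how far lines differ that carry no targeted gene. Between MC38-WT and MC38-MOCK#1, 0 of the 95 genes were higher and 1 was lower (1.05%), while 5.51% of all genes tested and 7.69% of expressed genes (3.76% higher and 3.93% lower) were DEGs. The gene was Atp5d, the delta subunit of the F1 part of the ATP synthase, with 2660, 2528 and 2037 normalized counts in MC38-WT against 3559, 3441 and 3550. It fell by 0.56 on the log2 scale (standard error 0.107, adjusted p = 0.0322, limma). The lowest value was that of MC38-WT sample 3, the library with the fewest reads. Without MC38-WT sample 1 the count was again 1, and without any other sample it was 0, with 9 to 15 genes at an unadjusted p below 0.05 in limma. It was also 0 with eBayes without a trend, with 11 such genes. The groups did not overlap for 30 of the 95 genes (31.6%), and for 31.1% of expressed genes.

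Between MC38-MOCK#2 and MC38-MOCK#1, 3 of the 95 genes were higher and 3 lower (6.32%), against 11.3% of all genes tested and 15.8% of expressed genes (7.79% higher and 8.04% lower). Values did not overlap between the lines for 36 of the 95 genes (37.9%), and for 39.2% of expressed genes. Cox7c was higher, with 709, 737 and 762 normalized counts against 503, 484 and 549 and a log2 fold change of 0.52 (standard error 0.0754, adjusted p = 0.00824, limma). The other genes that rose were Sdhaf2, which helps to attach flavin to complex II, by 0.37, and Atp5h, a subunit of the stalk of the ATP synthase, by 0.26. Ndufa8 fell by 0.42, with 839, 815 and 750 against 1015, 1096 and 1101, Atp5d fell by 0.38, and Atp5mpl, a small proteolipid of the ATP synthase, by 0.28. Cox7c was thus lower and Ndufa8 higher in MC38-MOCK#1 than in either MC38-COSMC KO or MC38-MOCK#2. The count was 0 without MC38-MOCK#1 sample 2 (with 15 genes at an unadjusted p below 0.05 in limma), 1 without MC38-MOCK#1 sample 3 or MC38-MOCK#2 sample 2, 2 without MC38-MOCK#1 sample 1 or MC38-MOCK#2 sample 1, and 5 without MC38-MOCK#2 sample 3, and it was 1 with eBayes without a trend (Cox7c).

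In the line labelled FUT4, 11 of the 95 genes were higher than in MC38-MOCK#2 and 6 were lower (17.9%), against 16.1% of all genes tested and 22.1% of expressed genes (10.4% higher and 11.6% lower). No overlap between the lines was found for 39 of the 95 genes (41.1%), and for 43.5% of expressed genes. Cox7b2 had 53, 56 and 53 normalized counts against 1, 0 and 0. It met the mean of at least 10 over all samples only with the counts of this line included. Its call here is therefore not independent of the rule that took it in. An estimated 167 reads against 1 give a ratio of 149, with an exact 95% interval of 26.4 to 5916 for counting error, and the adjusted p in limma was 0.000452. The fitted log2 fold change was 5.45 with a pseudocount of 1 and 3.47 with 5. Over the 8 lines, Cox7b2 was highest in the line labelled FUT4, lower in MC38-CMAS KO (25, 25 and 15) and in MC38-WT (7, 5 and 10), and at most 6 in every sample of the other lines. The promoter of Cox7b2 printed above held none of the 3 motifs.

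In complex I, Ndufa12 rose by 0.74 on the log2 scale, and Ndufa8 rose by 0.57, from 839, 815 and 750 to 1168, 1139 and 1250 normalized counts (adjusted p = 0.00328, limma). The complex I assembly factors Ndufaf4 and Ndufaf3 rose by 0.65 and 0.59. In complex III, Uqcr11, a small subunit, rose by 0.58 and the core protein gene Uqcrc1 by 0.34. Atp5d rose by 0.49, from 2839, 2835 and 2457 to 4001, 3517 and 3881. The 3 further genes that rose were Atp5b, Cox5a and Atp5j2, by 0.33, 0.32 and 0.30.

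The genes that fell in the line labelled FUT4 were led by Cox7a2l, with 919, 970 and 947 normalized counts against 1288, 1331 and 1288 and a decrease by 0.46 on the log2 scale (standard error 0.0575, adjusted p = 0.00297, limma). Ndufs4, an accessory subunit of complex I, fell by 0.40 and Ndufaf7 by 0.38. In complex II, both subunits outside the membrane fell, Sdha by 0.25 and Sdhb by 0.23, while Sdhc and Sdhd did not pass the test in this or any other comparison of 2 lines. Atp5j, coupling factor 6 of the ATP synthase stalk, fell by 0.32 (adjusted p = 0.0491, limma). Atp5j shares 12.7% of its exon bases with Gabpa, which lies on the opposite strand and itself fell by 0.53, and whether the counting used strand is not given in the sources used here. Cox7b2, Ndufaf4, Uqcr11, Ndufa8 and Cox7a2l were DEGs in each of the 6 fits without a sample. The DEG count was 5 without sample 1 and 6 without sample 3 of the line labelled FUT4, and 9, 10 and 12 without MC38-MOCK#2 sample 2, 1 and 3, and 13 without sample 2 of the line labelled FUT4. With eBayes without a trend it was 6.

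Between MC38-FUT9 and MC38-MOCK#2, 14 of the 95 genes were higher and 7 lower (22.1%), against 24.1% of all genes tested and 33.4% of expressed genes (16.9% higher and 16.5% lower). Both lines were fully separated for 44 of the 95 genes (46.3%) and for 50.8% of expressed genes. Rescaled to the same total, 11 were higher and 15 lower. The change furthest from 0 among the DEGs was that of Ndufc2 (ENSMUSG00000030647, chromosome 7, 97400003 to 97407802), an accessory subunit in the membrane arm of complex I. It had 998, 1028 and 1033 normalized counts against 325, 420 and 383, a log2 fold change of 1.44 (standard error 0.1, adjusted p = 0.000327, limma). In the 21 samples of the other lines Ndufc2 lay between 307 and 439, so MC38-FUT9 stood apart from every line.

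Complex IV genes that rose were Cox6a2, the form of heart and skeletal muscle, by 1.28 at a low level (23, 17 and 23 normalized counts against 8, 7 and 9), Cox6b1 by 0.45 and Cox6c by 0.44. Cox6a2 had values of up to 30 in MC38-WT and up to 20 in MC38-MOCK#1, so its level in MC38-FUT9 was not outside those of the other lines. Cox6b1 had 1555, 1665 and 1534 normalized counts against 1117, 1189 and 1177. Atp5b rose by 0.58, with 25085, 27910 and 25526 against 18082, 18533 and 15930 (adjusted p = 0.00493, limma), and Atp5k, which encodes subunit e of the ATP synthase, by 0.45. Ndufab1, the acyl carrier protein that is also part of complex I, and the assembly factor Ndufaf2 both rose by 0.40, and Cox7a2l rose by 0.39. The other 5 genes that rose did so by 0.26 to 0.38.

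The genes that fell in MC38-FUT9 were mainly of complex I. Ndufv3, an accessory subunit of the part that oxidizes NADH, fell by 0.68, Ndufa11 by 0.45, and the core subunits Ndufs8 and Ndufs3 by 0.36 and 0.27. Ndufa11 had 425, 453 and 423 normalized counts against 589, 588 and 595. Sdhaf4 fell by 0.51, Atp5d by 0.29 and Atp5c1 by 0.21. With 4 subunits higher and 4 lower, complex I showed no common direction in this comparison. Ndufc2, Atp5b, Cox6b1, Cox6c, Ndufab1, Ndufa11 and Ndufs8 were DEGs in each of the 6 fits without a sample. The DEG count was 10, 11 and 15 without MC38-FUT9 sample 1, 2 and 3, and 12, 13 and 17 without MC38-MOCK#2 sample 1, 2 and 3. With eBayes without a trend it was 10.

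**Figure D4:**
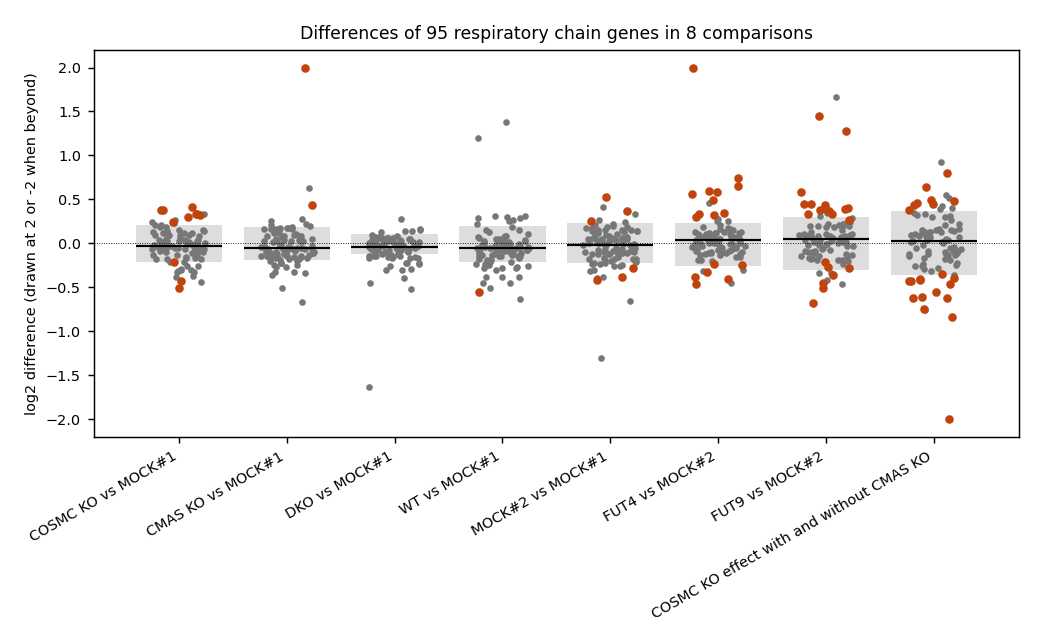
Log2 fold change of each of the 95 genes in each of 7 pairwise comparisons and in the difference between knockout backgrounds, with values beyond 2 drawn at 2. Red dots are DEGs and grey dots are not, the black line is the median of the 95 genes and the grey box spans the quartiles of expressed genes; the medians lie between -0.06 and 0.04.

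Across the 7 comparisons of 2 lines, 41 of the 95 genes were DEGs at least once, 54 never and 11 more than once. Those never called included 24 of 36 subunits of complex I, 6 of 13 of complex IV, 7 of 16 of complex V, 4 of 8 of complex III and 2 of 4 of complex II. The comparisons share control lines, so these counts are not independent. Matching counts over the 7 comparisons are not given for all expressed genes, so whether these are many or few cannot be said. No gene was a DEG in the same direction in 4 or more comparisons. Atp5b was higher in MC38-COSMC KO, in the line labelled FUT4 and in MC38-FUT9, and Cox7c was higher in MC38-COSMC KO, MC38-CMAS KO and MC38-MOCK#2. The 4 genes that were DEGs in both directions were Atp5d (higher in 1 comparison, lower in 3), Cox7a2l (2 and 1), Ndufa8 (1 and 2) and Ndufaf7 (1 and 1). In a comparison of 2 lines, at most 3 of 13 complex IV genes, 8 of 36 complex I genes, 5 of 16 complex V genes, 2 of 8 complex III genes and 2 of 4 complex II genes were DEGs, against 0.141% to 33.4% of expressed genes over the 7 comparisons. Such counts do not show a small shift that genes of a complex share. In MC38-CMAS KO all 4 complex II subunits had negative values (-0.22 to -0.05, median -0.07) with 0 called by limma. This was not particular to complex II, as 58 of the 95 genes were negative there (median -0.05), and the medians of complexes I and III were -0.11 and -0.11.

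The 4 lines MC38-MOCK#1, MC38-COSMC KO, MC38-CMAS KO and MC38-DKO combine targeting of COSMC and of Cmas. The difference between lines with and without COSMC targeting was compared between the backgrounds with and without Cmas targeting. An interaction term in limma passed the threshold for 22 of the 95 genes (23.2%), 8 with a higher and 14 with a lower value in the Cmas-targeted background, against 19.0% of all genes tested and 30.4% of expressed genes (15.1% higher and 15.3% lower). Rescaled to the same total, 14 were higher and 10 lower. Leaving out a sample gave 18 to 22, and eBayes without a trend 13.

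Cox7c rose by 0.38 on the log2 scale from MC38-MOCK#1 to MC38-COSMC KO and fell by 0.46 from MC38-CMAS KO (717, 678 and 681 normalized counts) to MC38-DKO (472, 515 and 521), an interaction of -0.84 (standard error 0.103, adjusted p = 6.35e-05, limma). Ndufs7 (0.34 and -0.41), Cox6c (0.33 and -0.29), Atp5b (0.42 and -0.20) and Cox7a2l (0.38 and -0.23) had the same pattern, with interactions of -0.75, -0.62, -0.62 and -0.61. All 5 DEGs of complex IV had a lower interaction value, Cox7b2 with -4.16 among them. The value of Cox7b2 depends on the pseudocount because MC38-DKO was listed at 0 (it was -2.26 with a pseudocount of 5). Cox7b2 also met the rule on mean level only through MC38-CMAS KO and the line labelled FUT4. Its call here is therefore not independent of that rule. Uqcrb, a subunit of complex III, showed the opposite of Cox7c, with 622, 590 and 520 in MC38-MOCK#1, 472, 476 and 453 in MC38-COSMC KO, 470, 461 and 412 in MC38-CMAS KO and 604, 700 and 600 in MC38-DKO. Its interaction was 0.80 (standard error 0.129, adjusted p = 0.000564, limma), that of Ndufb2 was 0.64 and that of Sdha 0.46. The difference had opposite signs in both backgrounds for 21 of the 22 genes, for 70 of all 95 (73.7%), and for 71.0% of the 13515 expressed genes, so this reversal was about as frequent among respiratory chain genes as among others.

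The direction of a gene went with its chromosome in several comparisons. In MC38-COSMC KO against MC38-MOCK#1, the median log2 fold change of 645 other expressed genes on chromosome 10 was 0.32, and the genes there that rose were Atp5b and Ndufs7. On chromosome 15 the median was 0.20 and all 5 respiratory chain genes had positive values, Cox6c and Atp5g2 as DEGs. This was not particular to MC38-COSMC KO. Against MC38-MOCK#1, the chromosome 15 median was also 0.21 in MC38-WT, 0.17 in MC38-MOCK#2 and 0.15 in MC38-CMAS KO, but -0.02 in MC38-DKO. On chromosome 2 the median in MC38-COSMC KO was -0.16 and all 7 respiratory chain genes were negative, Ndufa8 and Atp5c1 as DEGs. In the line labelled FUT4, chromosome 10 had a median of 0.23, and all 5 respiratory chain genes on it were positive and 4 were DEGs (Ndufa12, Uqcr11, Atp5d and Atp5b), while chromosome 16, which holds Atp5j, had a median of -0.24. In MC38-FUT9, chromosome 7 had a median of 0.28, and all 8 respiratory chain genes on it were positive and 6 were DEGs, Ndufc2, Cox6a2, Cox6b1 and Ndufab1 among them. The interaction on chromosome 10 had a median of -0.52.

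**Figure D5:**
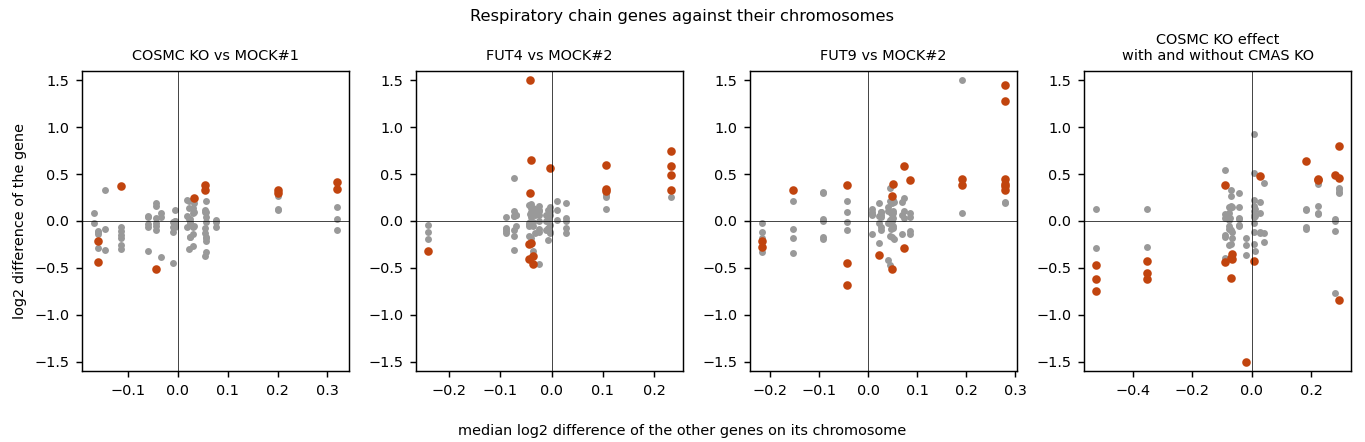
Log2 difference of each of the 95 genes (vertical, drawn at 1.5 where beyond) against the median log2 difference of the other expressed genes on its chromosome (horizontal), for MC38-COSMC KO, the line labelled FUT4, MC38-FUT9 and the difference between knockout backgrounds. Red dots are DEGs; genes on chromosomes with a positive median lie mostly above 0, with Pearson's r of 0.41, 0.19, 0.51 and 0.28 over the 95 genes.

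Over the 95 genes on 20 chromosomes, the correlation of a gene's log2 fold change with the median of its chromosome was r = 0.41 (rho = 0.37) in MC38-COSMC KO, r = 0.51 (rho = 0.46) in MC38-FUT9, r = 0.19 (rho = 0.41) in the line labelled FUT4 and r = 0.28 (rho = 0.41) for the interaction. In the other comparisons r was 0.18 in MC38-CMAS KO, 0.22 in MC38-DKO, 0.20 in MC38-WT and 0.19 in MC38-MOCK#2. Without the genes whose change was at least 1, r was 0.57 in the line labelled FUT4, 0.43 in MC38-FUT9, 0.44 for the interaction, 0.33 in MC38-CMAS KO, 0.39 in MC38-DKO, 0.26 in MC38-WT and 0.25 in MC38-MOCK#2, and no gene of MC38-COSMC KO reached 1. Genes of a chromosome share its median and all values of a comparison share the same libraries, so no p is given. With the median of each chromosome removed in each sample, an alternative chosen after seeing the data, 6 of the 95 genes were DEGs in MC38-COSMC KO in place of 11, 10 in place of 17 in the line labelled FUT4, 15 in place of 21 in MC38-FUT9 and 13 in place of 22 in the interaction. Of these, 3, 9, 13 and 8 were DEGs before the removal too. The share of expressed genes called after the removal is not given here. Atp5b in MC38-COSMC KO then had a log2 fold change of 0.10 (adjusted p = 0.304, limma), and Ndufc2 in MC38-FUT9 one of 1.16 (adjusted p = 0.000289, limma). The number of copies of a chromosome was not measured, and its part in these values was not tested.

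Ndufc2 also moved with its neighbours in MC38-FUT9. Within 1000 kb on either side of it lay 13 other expressed genes, of which 9 were higher and 0 lower in limma, with a median log2 fold change of 0.58. Of all expressed genes 16.9% were higher, and the 1007 other expressed genes of chromosome 7 had a median of 0.28. Gab2 (1.23), Alg8 (1.01) and Usp35 (0.93) were the furthest from 0 among those that rose, all below the 1.44 of Ndufc2, and Aamdc had -0.51 (adjusted p = 0.0515, limma).

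Other gene lists, of mitochondria and of the cytosol, were counted in the same way. These lists were drawn up with earlier results of these data known, and each is given by its counts, to be read against the DEGs among all expressed genes (9.12% higher and 8.01% lower in MC38-COSMC KO, 16.9% and 16.5% in MC38-FUT9, 10.4% and 11.6% in the line labelled FUT4, 15.1% and 15.3% for the interaction). In MC38-COSMC KO against MC38-MOCK#1, 2 of 16 TCA cycle genes were higher and 3 lower, 0 and 2 of 39 assembly factors outside the name rule, 0 and 3 of 15 genes of cytochrome c and coenzyme Q, and 6 and 4 of 78 mitochondrial ribosomal protein genes. In MC38-FUT9 against MC38-MOCK#2, the counts were 4 and 2, 2 and 3, 4 and 1, and 13 and 8, and in the line labelled FUT4 they were 5 and 2, 2 and 2, 3 and 0, and 7 and 3 (of 77). For the interaction they were 8 and 2, 6 and 1, 5 and 1, and 11 and 6. Of 83 cytosolic ribosomal protein genes, 22 were higher and 1 lower in MC38-COSMC KO, 21 and 2 in MC38-FUT9, and 7 and 2 in the line labelled FUT4, and in the interaction 7 were higher and 18 lower. Of 21 genes of glycolysis and the response to low oxygen, 2 were higher and 3 lower in MC38-COSMC KO, 1 and 5 in MC38-FUT9, and 1 and 0 in the line labelled FUT4, and in the interaction 3 and 2. In MC38-CMAS KO, MC38-WT and MC38-MOCK#2 against MC38-MOCK#1, at most 9 genes of any of these lists were DEGs, and in MC38-DKO there was none in limma.

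Among 16 genes that regulate the chain or mitochondrial DNA, Myc, a transcription factor that many growth signals induce, rose in MC38-COSMC KO by 0.93, in MC38-WT by 1.01 (both against MC38-MOCK#1), in the line labelled FUT4 by 0.57 and in MC38-FUT9 by 1.08 on the log2 scale. Its interaction was -1.70. The mean of Myc was 2536 in MC38-WT, 2378 in MC38-COSMC KO and 2067 in MC38-CMAS KO, against 1229 in MC38-MOCK#1, 1210 in MC38-DKO and 1280 in MC38-MOCK#2. Tfb1m, which encodes a methyltransferase of the mitochondrial ribosomal RNA, fell by 0.77 in MC38-COSMC KO, by 0.60 in MC38-CMAS KO and by 1.19 in MC38-FUT9, with an interaction of 1.35. Its mean in MC38-WT, 113, was near those of MC38-COSMC KO (97) and MC38-CMAS KO (109), while MC38-MOCK#1 (166) and MC38-DKO (164) were higher. Tfam, which packs and transcribes mitochondrial DNA, rose by 0.44 in MC38-COSMC KO with an interaction of -0.50. It lies on chromosome 10, whose median was 0.32 in that comparison, and with the chromosome medians removed its interaction was 0.03.

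Of the factors whose motifs were searched for, Gabpa fell by 0.53 and Yy1 by 0.36 in the line labelled FUT4 and Nrf1 did not pass the test, while Esrra, a nuclear receptor of mitochondrial genes, rose by 0.63. Of the 21 genes with the GABPA motif, 1 was higher and 2 lower in this line, and of the 8 with the YY1 motif 1 was higher and 2 lower, against 11 and 6 of the 95. Promoters were matched for only 75 of these 95 genes, so the last counts include genes whose motifs are not known. Atp5j, which fell, is in both motif groups. It shares exon bases with Gabpa on chromosome 16, whose median was -0.24 in this line. Whether the motif groups differ from the rest was not tested. In MC38-FUT9, Esrra rose by 0.60, Lrpprc, which stabilizes mitochondrial messenger RNA, by 0.54, and the coactivator gene Pprc1 by 0.46. Ppargc1b, a related coactivator gene, fell by 0.57 in MC38-MOCK#2 against MC38-MOCK#1. Yy1 had an interaction of 0.35. In the remaining comparisons named above no further regulator passed the test.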

How the data were processed

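RNA of 24 samples of 8 MC38 lines was sequenced by the authors as single reads of polyadenylated RNA with a stranded kit. They trimmed the reads with Sickle, aligned them to GRCm38 with HISAT2 and counted them per gene with featureCounts, leaving out reads that overlap several genes. Of the unit score, the deposited values are read counts scaled by the authors in edgeR for the size of each library, with TMM factors, and then rounded. They are therefore not raw counts, and no count model was used. Read numbers were estimated from which whole numbers are rare among the values of a library. The sequencing depth differed by more than 2-fold between libraries, and intervals and ratios of reads cover counting error only.

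Values were tested as log2(value + 1) with limma 3.58.1 (R 4.3.3), using lmFit and a moderated test with a mean-variance trend, with the 3 samples of either line, or 12 samples for the interaction, and no covariate. Fold changes on this scale understate the change of low genes. Genes with more than 4 zeros among 6 samples (10 among 12) were left out, and the Benjamini-Hochberg adjustment was made over all genes tested. The fit was tested on simulated data. All pairs of samples of a line differed by more than sampling noise, so none was taken for a library deposited again, which does not show that they are separate harvests. The labels number the samples 1 to 3, and these numbers follow the passage in every line but the one labelled FUT4. In no comparison did all 3 same-numbered pairs correlate above 0.1, and the samples were not treated as pairs. All 3 pairs were positive, however, for MC38-MOCK#2 against MC38-MOCK#1 (lowest r = 0.0948) and for MC38-FUT9 against MC38-MOCK#2 (lowest r = 0.0912). The main test ignores a pairing by number in these comparisons. Other steps used Python 3.11.15, pandas 2.3.3, numpy 2.4.6, matplotlib 3.10.9 and scipy 1.17.1.

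The respiratory chain genes and the other lists were chosen with earlier results of these data known. Named genes are, for each comparison, all DEGs of a direction or, above 8, the 8 with the largest change among those whose samples do not overlap, further those that were DEGs in both directions, tissue forms of subunits, Sdha to Sdhd, and regulators called. Genes named for their chromosome, their neighbourhood or in passing fall outside this rule and were chosen with their values in view. The alternatives were another pseudocount, other filters on low values, other scalings, eBayes without a trend, all 8 lines in a single fit, the replicate number as a block, leaving out each sample, and removal of chromosome medians. Gene symbols, coordinates and exon lengths are those of the GRCm38 annotation. The values of 1 of the 95 genes are counted but not reported here. Assays of the study other than RNA sequencing were not analysed here.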

Additional observations from a re-analysis of the deposited data

Results flagged for a closer look

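The interaction term in limma passed the threshold for 22 of the 95 respiratory chain genes (23.2%), for 19.0% of all genes tested and for 30.4% of expressed genes. It sets the difference between lines with and without COSMC targeting against the Cmas background. Each line was made once, so targeting and the history of a line cannot be told apart. Against MC38-MOCK#1, 0.141% of expressed genes were DEGs in MC38-DKO, 17.1% in MC38-COSMC KO and 8.18% in MC38-CMAS KO. With chromosome medians removed 13 genes passed, 8 of them among the 22, and with eBayes without a trend 13. The values of the genes named by the rule, as the log2 fold change from MC38-CMAS KO to MC38-DKO minus that from MC38-MOCK#1 to MC38-COSMC KO, were -4.16 for Cox7b2, -0.84 for Cox7c, 0.80 for Uqcrb, -0.75 for Ndufs7, 0.64 for Ndufb2, -0.62 for Cox6c, -0.62 for Atp5b and -0.61 for Cox7a2l. These 8 genes were DEGs in all 12 fits that left out a sample. Cox7b2 met the rule on mean level only through MC38-CMAS KO and the line labelled FUT4, so its call is not independent of that rule. C1galt1c1, the gene targeted in both MC38-COSMC KO and MC38-DKO, had 145, 163 and 124 normalized counts in the former and 206, 166 and 175 in the latter. In MC38-CMAS KO, where it was not targeted, it had 215, 181 and 152, so its RNA was not clearly lower in MC38-DKO than in that line. What the interactions rest on was not tested.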

How the results depend on the processing

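The number of respiratory chain DEGs moved with several settings. With only expressed genes fitted it was 18 in MC38-COSMC KO, 5 in MC38-CMAS KO, 2 in MC38-WT and 10 in MC38-MOCK#2. With all 8 lines in a single fit, which was not run for the interaction, it was 5 in MC38-CMAS KO, 12 in MC38-WT and 16 in MC38-MOCK#2. Rescaled to the same total, it was 4 in MC38-CMAS KO and 2 in MC38-WT. With eBayes without a trend it was 0 in MC38-COSMC KO and 0 in MC38-WT (21 and 11 at an unadjusted p below 0.05 in limma), 1 in MC38-MOCK#2, 6 in the line labelled FUT4, 10 in MC38-FUT9 and 13 for the interaction. With chromosome medians removed it was 6 in MC38-COSMC KO, 10 in the line labelled FUT4 and 13 for the interaction, where Tfam changed sign (0.0272). The share of expressed genes called under each of these settings is not given here. Whether the shifts are particular to respiratory chain genes therefore cannot be said, and their cause was not tested. In MC38-DKO limma called 0 genes under every setting, with 5 to 10 at an unadjusted p below 0.05.

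Leaving out a sample gave 2 to 11 DEGs in MC38-COSMC KO, 0 to 3 in MC38-CMAS KO, 0 to 1 in MC38-WT, 0 to 5 in MC38-MOCK#2, 5 to 13 in the line labelled FUT4, 10 to 17 in MC38-FUT9 and 18 to 22 for the interaction. With the replicate block the counts were 0 in MC38-COSMC KO, 0 in MC38-CMAS KO, 0 in MC38-WT (26, 20 and 16 at an unadjusted p below 0.05 in limma) and 6 in the line labelled FUT4, and it changed no other count by over 1.5 times. Same-numbered samples correlated with r between -0.219 and 0.270 after line means were removed, and in no comparison did all 3 pairs exceed 0.1. Every sample was closest to its own number for MC38-MOCK#2 against MC38-MOCK#1 and for MC38-FUT9, and not in the other 5 comparisons.

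Of 57 named changes, 56 kept their side of the threshold with a pseudocount of 5, 55 with median of ratios scaling, 54 at the same total, 51 without a filter on zeros, 31 with chromosome medians removed, 28 with the replicate block and 24 without a trend. Low depth limits Cox7b2 and Cox6a2, whose values rest on few reads.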
